A study of Mus musculus with 12 samples.

Results

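The genes described here are the 4 subunits of calcium/calmodulin-dependent protein kinase II (CaMKII), Camk2a, Camk2b, Camk2d and Camk2g, and the genes of its 2 natural inhibitor proteins, Camk2n1 and Camk2n2. All 6 were found by symbol among the 15759 entries of the normalized-count table, and all 6 passed the filter on low counts that left 15369 tested genes. The family was chosen from these same data, because Camk2n1 and Camk2a were already known to be lower in SCA1 KI than in WT libraries. The genotype differences of the members are therefore given as a description, and where the rule for calls is applied to them it serves as a label and not as evidence. The mice were SCA1 KI (Atxn1 154Q/2Q) animals, in which 1 Atxn1 allele encodes 154 glutamines and the other 2 under the gene's own regulatory elements, and WT controls. Both genotypes were C57BL/6J mice of 12 weeks. RNA of whole cortex and of whole cerebellum was sequenced in 3 libraries per region and genotype, which makes 4 groups. The labels list males, whereas the methods describe both sexes combined, and the cerebellar libraries come from an earlier dataset of the same laboratory.

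CaMKII is a ring-shaped assembly of subunits that calcium-bound calmodulin switches on and that can then stay active by phosphorylating itself. In excitatory synapses of the forebrain it is among the most abundant proteins, where it binds NMDA receptors and takes part in long-term potentiation. The alpha and beta subunits are the main neuronal forms and the beta subunit also binds actin, the delta and gamma subunits occur in many tissues, and the Camk2n1 and Camk2n2 proteins bind the active kinase and block it.

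Reads on genes numbered 29520855 to 51311309 per library, and the members carried 2966 to 165495 reads each. Values are normalized counts, which are reads divided by 1 size factor per library. LFC is the log2 fold change of SCA1 KI over WT on log2(normalized count + 1), and SE its standard error in limma. Genes past an adjusted p of 0.05 and an LFC of 0.25 in either direction are called DEGs. Atxn1, the knock-in gene, had an LFC of −0.31 in the cortex (SE 0.13, adjusted p = 0.132) and of 0.079 in the cerebellum (SE 0.13, adjusted p = 0.837), and read counts do not measure the length of its repeat.

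In the cortex, Camk2n1 and Camk2a were lower in every SCA1 KI library than in any WT library, Camk2g was lower to a smaller degree, and Camk2b, Camk2d and Camk2n2 lay closer to WT. Camk2n1, the inhibitor gene (chromosome 4, 138454314 to 138460123, GRCm38, plus strand), had normalized counts of 129682, 154705 and 161189.7 in WT libraries B, C and D, and of 53995, 58099 and 51693 in SCA1 KI libraries A, E and F. The highest SCA1 KI value was thus well below the lowest WT value. Its group means were 148525 ± 16638 (SD, n = 3) in WT and 54596 ± 3245 (SD, n = 3) in SCA1 KI cortex, an LFC of −1.44 (SE 0.082) or a level of 0.369 of WT. In bulk tissue, fewer cells of a type and less RNA per cell cannot be told apart.

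Camk2a, the alpha subunit (chromosome 18, 60925618 to 60988152, plus strand), had normalized counts of 177891, 167504 and 188418 in WT and of 78116, 89382 and 78498 in SCA1 KI cortex. The genotypes did not overlap, and each differed within itself by far less than between groups. The LFC was −1.12 (SE 0.094), a level of 0.460 of WT.

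Camk2g, the gamma subunit (chromosome 14, 20734875 to 20794088, minus strand), stood at 14975, 14509.9 and 14889 in WT and at 11637, 10340.0 and 9799 in SCA1 KI cortex. Again no SCA1 KI library reached the WT values, with an LFC of −0.49 (SE 0.094) or 0.714 of WT.

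Camk2b, the actin-binding beta subunit (chromosome 11, 5969644 to 6066362, minus strand), gave 34055, 31092 and 29761 in WT and 27097, 29123 and 29177 in SCA1 KI cortex. The libraries did not overlap, but WT library D was close to 2 of the SCA1 KI libraries, and the LFC was −0.15 (SE 0.079).

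Camk2d, the delta subunit (chromosome 3, 126596302 to 126846326, plus strand), gave 5954, 5621 and 6393 in WT and 5691, 8205 and 7757 in SCA1 KI cortex. SCA1 KI library A lay within the WT values and the other two lay above them. The LFC was 0.25 (SE 0.11), and it was 0.42 without library A, enough to meet the DEG rule.

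Camk2n2, the second inhibitor gene (chromosome 16, 20619215 to 20621287, minus strand), gave 5596, 5331 and 7030.3 in WT and 8702, 6618 and 6082 in SCA1 KI cortex. The groups overlapped, with SCA1 KI library A the highest and WT library D above both of the other SCA1 KI libraries. The LFC was 0.25 (SE 0.13), opposite in sign to that of Camk2n1, and it ranged from 0.095 to 0.37 when single libraries were left out.

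**Figure D1:**
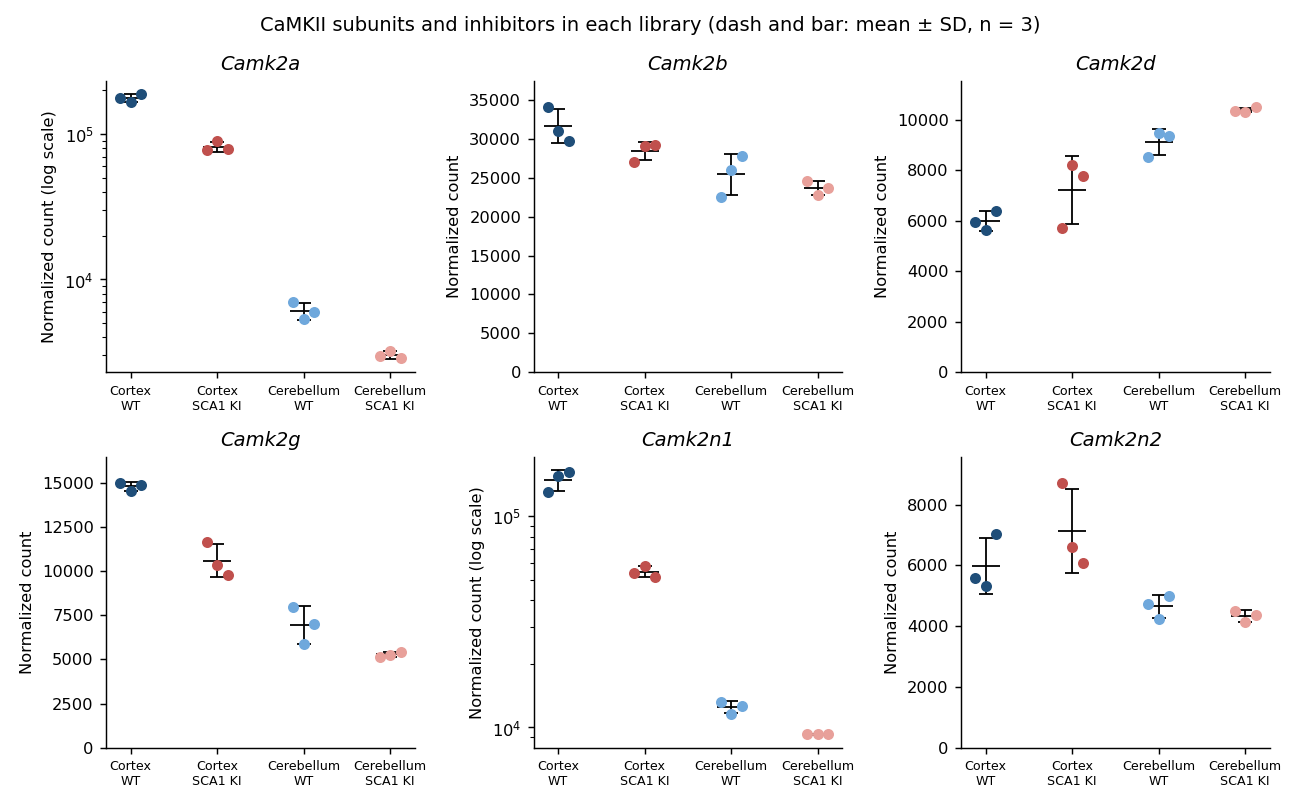
Normalized counts of the 6 genes (vertical axis, on a log scale for Camk2a and Camk2n1 and from 0 for the others) in the 12 libraries, with 1 point per library and the mean ± SD of each group of 3 as dash and bar. Camk2a and Camk2n1 fall from cortex to cerebellum and are lower in the SCA1 KI libraries of both regions, whereas the genotypes of Camk2b in the cerebellum and of Camk2n2 in both regions overlap and Camk2d is highest in the cerebellum.

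The DEG rule was met in the cortex by Camk2a, Camk2g and Camk2n1, 3 of 6 members, all lower. Over all tested genes the rule called 10.8% lower and 4.82% higher. Libraries did not overlap for 4 of the 6 members, against 30.9% of all tested genes. Since this contrast chose the family, nothing is read from these counts. The median LFC of the members was −0.32, and that of all tested genes −0.0028.

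The same 3 genes were lower in the SCA1 KI cerebellum, where the order of their changes was different: Camk2a came first and Camk2n1 and Camk2g followed at like sizes. Camk2a had normalized counts of 6982, 5315 and 5972 in WT libraries 2, 4 and 6 and of 2981, 3232 and 2871 in SCA1 KI libraries 1, 3 and 5. No library overlapped, and the LFC was −1.0004 (SE 0.094), a level of 0.4999 of WT.

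Camk2n1 gave 13208, 11608 and 12601 in the WT cerebellum and 9359, 9281 and 9285 in the SCA1 KI cerebellum. The SCA1 KI values were nearly equal to each other and all below WT. The LFC was −0.42 (SE 0.082), or 0.747 of WT. Camk2g gave 7981, 5869 and 7000.3 in WT and 5152, 5265 and 5424 in SCA1 KI, also without overlap. Its LFC was −0.39 (SE 0.094) and −0.28 without WT library 2, the library with the highest value. The call of Camk2g lay close to the adjusted threshold. Camk2g no longer met the DEG rule when any of the 3 SCA1 KI libraries, WT library 2 or WT library 6 was left out.

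The other members differed less in the cerebellum. Camk2d gave 8520.0, 9458 and 9349 in WT and 10347, 10307 and 10481 in SCA1 KI, so that all SCA1 KI libraries were higher, with an LFC of 0.19 (SE 0.11). Camk2b overlapped at 22563, 25965 and 27784 in WT and 24570.1, 22814 and 23697 in SCA1 KI, an LFC of −0.10 (SE 0.079). It was lowest in WT library 2, where Camk2a, Camk2g and Camk2n1 were highest, and its LFC was −0.18 without that library and −0.031 at the other end of the range. Camk2n2 overlapped too, at 4715, 4247 and 4989 in WT and 4496, 4129.9 and 4364 in SCA1 KI, an LFC of −0.10 (SE 0.13).

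In the cerebellum 3 of 6 members met the DEG rule, all lower, beside 4.44% of all tested genes lower and 0.917% higher. Libraries did not overlap for 4 of 6 members, beside 31.8% of all tested genes. The median LFC of the members was −0.24, and that of all tested genes −0.0049.

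The genotype LFC of Camk2n1 was 1.02 lower in the cortex than in the cerebellum (difference −1.02, SE 0.12). For Camk2a the difference was −0.12, for Camk2g −0.10, for Camk2b −0.053, for Camk2d 0.063 and for Camk2n2 0.35. Camk2n1 was the member that met the adjusted threshold for this difference, 1 of 6, beside 8.15% of all tested genes, and as this contrast shares its values with those that chose the family, nothing is read from the count.

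**Figure D2:**
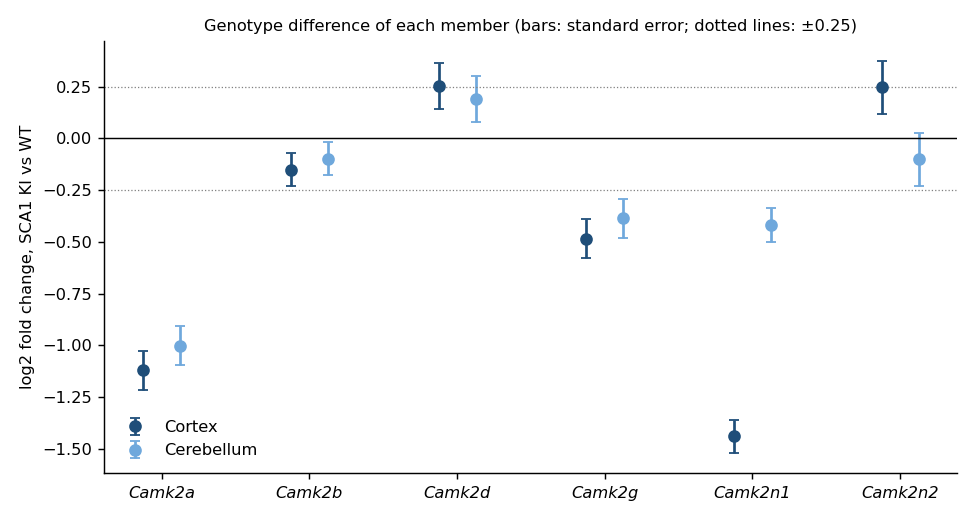
LFC of SCA1 KI over WT (vertical axis, log2 scale) of each member in cortex and cerebellum, with bars of 1 SE from limma. Camk2a has nearly the same LFC in both regions (−1.12 and −1.0004), and Camk2n1 lies at −1.44 in the cortex and −0.42 in the cerebellum.

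Markers of other cell types moved with some of these results. In the SCA1 KI cortex, 3 of 8 markers of cortical excitatory neurons were lower DEGs (Slc17a7, Cux2 and Rorb), and their summed normalized counts ranged from 91393 to 94283 in WT and from 63324 to 74149 in SCA1 KI libraries. Of the astrocyte markers 4 of 5 were lower, with sums of 245411 to 255492 in WT and 116818 to 179302 in SCA1 KI. Most of that sum was Slc1a2, with a mean of 209460 in WT and 122293 in SCA1 KI cortex. Lower too were 1 of 5 hippocampal, 2 of 6 interneuron and 3 of 6 Purkinje cell markers. Of the markers of thalamus and habenula 2 of 7, Shox2 and Pou4f1, were higher. Over all tested genes 10.8% were lower and 4.82% higher. The marker lists were chosen with earlier results of these data known, and nothing is read from their counts in either region. Shox2 was at 0 in every WT cortex library and at 16.2 to 51.4 in SCA1 KI cortex. Pou4f1 was at 2.21 to 6.83 in WT and at 217 to 372 in SCA1 KI cortex. WT library B held more of the oligodendrocyte markers (121179 against 70140.4 and 75529 in the other WT libraries). It also held more of the striatal markers (8138 against 3820 and 3857) and of the hippocampal markers (6258 against 4755 and 5342). Without library B the cortical LFC was −1.53 for Camk2n1 and −1.12 for Camk2a. The part of these markers in the values of Camk2a, Camk2n1 and Camk2g was not tested.

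In the cerebellum the marker list with the largest share of lower DEGs was that of thalamus and habenula, with 5 of 7. Over all tested genes 4.44% were lower DEGs there. Tcf7l2, a transcription factor of thalamic neurons, had 2404, 1480.4 and 2051 normalized counts in WT libraries 2, 4 and 6 and 210.1 to 249 in SCA1 KI. Slc17a6, a vesicular glutamate transporter, had 6803, 2878 and 3911 in WT and 982 to 1309.9 in SCA1 KI. Camk2a, Camk2g and Camk2n1 stood in the same order over the WT libraries as these genes, highest in library 2 and lowest in library 4. The summed level of the 7 markers was 21539 to 23150 in WT and 24659 to 25751 in SCA1 KI, of which Calb2, also a cerebellar gene, made up the larger part. Without Calb2 the other 6 summed to 7389.9 to 12533 in WT and 3710.4 to 4099 in SCA1 KI. The larger part of the SCA1 KI sum was Prkcd, at 2563 to 2670 in WT and 2269 to 2361 in SCA1 KI. Of the cortical excitatory markers, Bcl11b and Rorb were lower and Tbr1 higher, and the sums were 15290 to 20038 in WT and 20832 to 22820 in SCA1 KI. Most of that sum was Slc17a7, which granule cells express as well, and the other 7 markers summed to 2933 to 3594 in WT and 2774 to 2849 in SCA1 KI.

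WT library 2 also stood apart in other lists. Its granule cell markers summed to 141401 against 193847 and 199439 in the other WT libraries, and its oligodendrocyte markers to 241873 against 157022 and 174815. Without this library the cerebellar LFC was −0.90 for Camk2a and −0.38 for Camk2n1. Lower DEGs in the SCA1 KI cerebellum were 2 of 6 interneuron and 1 of 5 hippocampal markers. So were 1 of 5 astrocyte and 1 of 4 microglia markers. The interneuron genes Vip (LFC −5.47) and Sst (−3.29) and the hippocampal gene Fibcd1 (−3.33) fell as far as Tcf7l2 (−3.09). Each was highest in WT library 2, and Vip and Fibcd1 had low WT means of 97.7 and 132. The astrocyte gene Aldh1l1 (−0.27) and the microglia gene P2ry12 (−0.46) fell less. The oligodendrocyte markers summed to 132886 to 133683 in SCA1 KI, below all WT libraries, and each of the 4 was lower without overlap (LFC −0.44 to −0.56), sizes like those of Camk2n1 and Camk2g, but short of the adjusted threshold. No marker of granule cells, Purkinje cells, oligodendrocytes or striatum met the DEG rule there, nor did those of granule cells, oligodendrocytes, microglia or striatum in the cortex. The part of these markers in the cerebellar values was not tested.

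WT cortex and WT cerebellum were compared next. This contrast did not choose the members, but its WT libraries are also part of the genotype contrasts that did. Region and sequencing set cannot be told apart here, since the cerebellar libraries are from an earlier dataset. Of the 6 members, 5 were higher in the WT cortex and 1 was lower, while over all tested genes 31.0% were higher and 30.7% lower. Camk2a was 29.4-fold higher in the cortex (177938 ± 10457 against 6089 ± 840, SD, n = 3, LFC 4.88, adjusted p = 1.49e-12 from limma). Camk2n1 followed at 11.9-fold (148525 ± 16638 against 12472 ± 808, LFC 3.57, adjusted p = 4.97e-12). Camk2g was 2.14-fold higher in the cortex (14792 ± 248 against 6950.3 ± 1057, LFC 1.101, adjusted p = 3.44e-07).

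The other three members differed by less than Camk2g. Camk2b was 1.25-fold higher in the cortex (31636 ± 2198 against 25437 ± 2650, LFC 0.32, adjusted p = 0.00304), and its LFC of 0.23 without cerebellar library 2 was under the limit of the DEG rule. Camk2n2 was 1.28-fold higher (5986 ± 914 against 4650.2 ± 375, LFC 0.36, adjusted p = 0.0246), a difference that did not pass without cortex library D (LFC 0.24, adjusted p = 0.118) or cerebellar library 4 (LFC 0.29, adjusted p = 0.0917). Camk2d alone among the 6 was lower in the cortex, at 5989 ± 387 against 9109 ± 513 (LFC −0.61, adjusted p = 2.92e-04). In the order of the 4 groups, neighbouring groups overlapped for Camk2b (SCA1 KI cortex with WT cerebellum, and both cerebellar groups), for Camk2d (both cortex groups) and for Camk2n2 (both cortex groups, and both cerebellar groups). Neighbouring groups of Camk2a, Camk2g and Camk2n1 were all apart.

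Promoter sequences are shown for Camk2b and Camk2d, because these subunits had opposite orders between the WT regions. RefSeq sequences of 300 bases on GRCm38.p6 were used, from 250 before to 50 after the gene start used by that source. They are described for Camk2b, Camk2d and Camk2n2, 3 of the 6 members. For Camk2g and Camk2n1 no sequence of 300 bases was found by symbol. The promoter of Camk2a is not reported here, which does not mean that a match for it failed. The promoter of Camk2b lies on the minus strand at chr11:6065699-6065998 and that of Camk2d on the plus strand at chr3:126596701-126597000. Both windows lie inside the gene coordinates given above, so the starts used here are not the outermost annotated starts. They are written 5′ to 3′ with GC boxes, the letters GGGCGG on either strand, in capitals.
Camk2b: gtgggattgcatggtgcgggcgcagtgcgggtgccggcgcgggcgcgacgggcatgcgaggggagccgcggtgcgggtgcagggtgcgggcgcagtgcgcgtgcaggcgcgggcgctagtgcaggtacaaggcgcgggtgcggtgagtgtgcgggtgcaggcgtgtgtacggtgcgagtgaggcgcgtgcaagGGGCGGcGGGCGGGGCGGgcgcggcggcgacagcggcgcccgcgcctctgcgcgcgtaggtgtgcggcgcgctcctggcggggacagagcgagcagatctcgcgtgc
Camk2d: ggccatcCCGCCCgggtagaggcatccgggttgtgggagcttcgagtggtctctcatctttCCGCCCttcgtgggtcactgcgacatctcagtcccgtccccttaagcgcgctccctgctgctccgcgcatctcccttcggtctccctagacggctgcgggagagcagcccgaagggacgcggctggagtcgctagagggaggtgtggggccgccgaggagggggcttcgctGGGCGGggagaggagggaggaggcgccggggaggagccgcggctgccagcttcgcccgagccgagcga
Both windows held 3 GC boxes and were rich in G and C (77.3% in Camk2b and 70.3% in Camk2d), as was the window of Camk2n2 with 6 GC boxes and 79.0%. Among 32851 promoters of the same length 35.7% held a GC box, and the median content of G and C was 52.7%. None of the 3 windows held the letters CCAAT on either strand, which 37.4% of the promoters did. The TATA box (TATAAA), present in 13.6% of the promoters, was in none of them either, nor was the cyclic AMP response element (TGACGTCA), present in 1.79%. These matches describe letters and not binding.

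The mix of subunits was compared per kilobase, as normalized counts divided by the length of all exons of a gene (GENCODE vM21, GRCm38). Camk2a made up 79.7% of the summed subunit level in WT cortex (range 79.0% to 81.1%) and 68.3% in SCA1 KI cortex (67.5% to 69.8%). In the cerebellum its share was 16.02% in WT (14.5% to 18.6%) and 9.47% in SCA1 KI (8.96% to 10.3%). Camk2b was the leading subunit of the cerebellum instead, with 49.1% to 58.1% of the sum in WT and 59.3% to 61.8% in SCA1 KI libraries, and it took 10.48% to 12.4% and 18.6% to 20.5% in the WT and SCA1 KI cortex.

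The ratio of Camk2a to Camk2b per kilobase was 6.39, 6.59 and 7.74 in WT and 3.52, 3.75 and 3.29 in SCA1 KI cortex. In the cerebellum it was 0.378, 0.2502 and 0.263 in WT and 0.148, 0.173 and 0.148 in SCA1 KI. The ratio was thus lower in all SCA1 KI libraries of either region, and the cortex stayed above the cerebellum in both genotypes.

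The summed level of the 4 subunits per kilobase was 28363 to 31112 in WT and 15505 to 17145 in SCA1 KI cortex. In the cerebellum it was 4895 to 5354 in WT and 4214 to 4357 in SCA1 KI. Camk2n1 was lower by more than this sum in both regions. Its ratio to the summed subunits was 0.967, 1.23 and 1.17 in WT and 0.784, 0.763 and 0.746 in SCA1 KI cortex. In the cerebellum the ratio was 0.591, 0.534 and 0.530 in WT and 0.483, 0.496 and 0.486 in SCA1 KI. The size of the ratio depended on the length used, with means of 0.689 and 0.446 in WT and SCA1 KI cortex and 0.257 and 0.217 in WT and SCA1 KI cerebellum per kilobase of the longest transcript, and the genotypes stayed apart.

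Adding Camk2n2 changed this picture. The level of both inhibitors over that of the subunits overlapped between genotypes in the cortex (1.11 to 1.37 in WT, 1.05 to 1.22 in SCA1 KI) and in the cerebellum (1.21 to 1.32 in WT, 1.25 to 1.28 in SCA1 KI), and with the longest transcript its mean in the WT cortex was 0.785. Camk2n1 was 87.8% of the summed inhibitor level in WT and 69.1% in SCA1 KI cortex, and 43.8% and 38.5% in the WT and SCA1 KI cerebellum. These shares follow from the same values as the genotype differences above and carry no test.

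**Figure D3:**
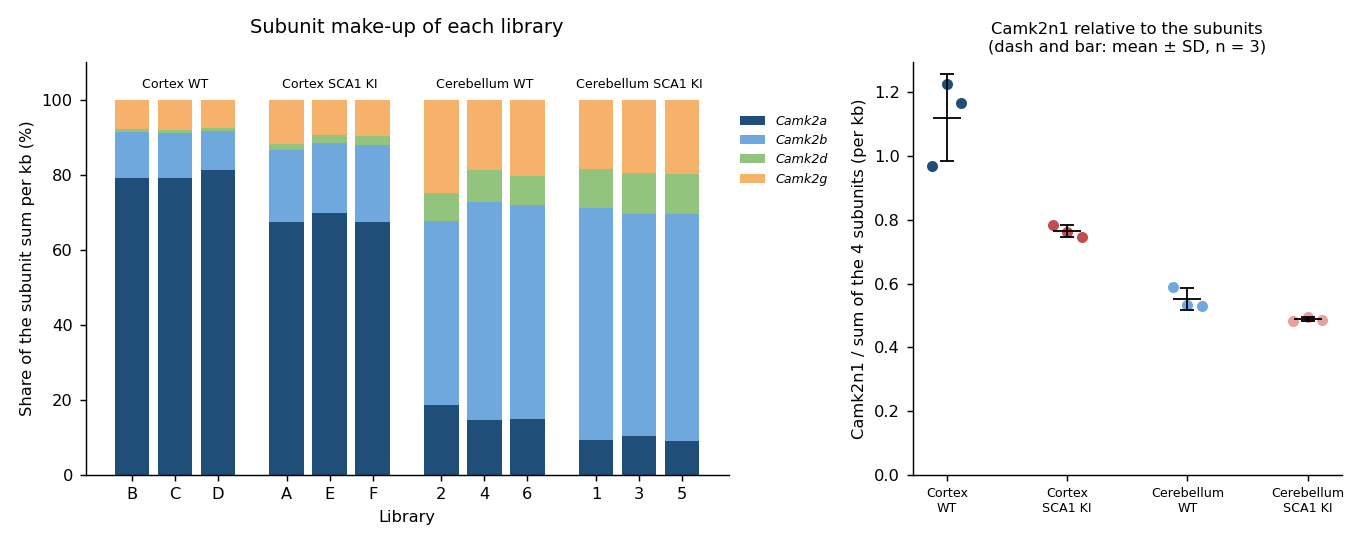
Share of each subunit in the summed subunit level per kilobase of exon (vertical axis, percent) in each of the 12 libraries, and the ratio of Camk2n1 to that sum with 1 point per library and the mean ± SD of each group (n = 3). Camk2a leads in all cortex libraries, Camk2b in all cerebellar libraries, and the share of Camk2a is smaller in every SCA1 KI library than in any WT library of its region.

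Across the 12 libraries, each taken as its difference from the mean of its region, Camk2a and Camk2g varied most alike (Pearson r = 0.93). Camk2n1 followed with r = 0.89 to Camk2a and 0.85 to Camk2g, and Camk2d ran the opposite way to Camk2g (r = −0.78). These points share libraries and carry the genotype difference, so the values only describe the pattern. Among genes averaging 100 normalized counts or more, those most like Camk2a were Synpo, Chn1 and AI593442, each at r = 0.98. Most like Camk2g were Cacng3 (0.98), Rcan2 (0.98) and Hpca (0.97). Among those most like Camk2n1 were Scrt1 (0.99) and an entry whose symbol spreadsheet software had turned into a date. The genes nearest to the members with smaller genotype differences were Mroh1, Brpf1 and Col20a1 for Camk2b (0.92 to 0.95), Inpp4b, Usp6nl and Efnb2 for Camk2d (0.92 to 0.94), and Hsd17b10, Psmd4 and Ufd1l for Camk2n2 (0.96 to 0.98).

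The genes around the kinase were followed in 5 lists of 44 genes in all, none of them a member. These lists were chosen with earlier results of these data known. Their counts are a description, and nothing is read from them. In the cortex 23 of the 44 were lower and 2 higher DEGs, or 52.3% and 4.55%, with a median LFC of −0.32, beside 10.8% and 4.82% of all tested genes. In the cerebellum 8 were lower, or 18.2% beside 4.44% of all tested genes, with a median LFC of −0.11, and 0 were higher by limma, edgeR or DESeq2. At an unadjusted p under 0.05, 1 was higher there by limma.

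Calmodulin, which activates CaMKII, and the proteins that hold it had 4 of 6 genes lower and 1 higher in the cortex. Calm3, a calmodulin gene, fell from 67563 to 68461 normalized counts in WT to 54044 to 58795 in SCA1 KI cortex (LFC −0.29, adjusted p = 0.00318). Calm2 had an LFC of −0.12 (adjusted p = 0.378). Nrgn, neurogranin, fell in the cortex (LFC −0.70, adjusted p = 0.0179), as did Pcp4 (−0.63), while the growth cone protein Gap43 rose (0.51).

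In the cerebellum 2 of these 6 were lower. Nrgn had 2687, 1777 and 2480 normalized counts in WT libraries 2, 4 and 6 and 155.0, 96.8 and 118 in SCA1 KI (LFC −4.22, adjusted p = 1.47e-07), with the same order of WT libraries as Camk2a and Tcf7l2. Pcp4, a calmodulin-binding protein of Purkinje cells, fell by 0.68 on the log2 scale. The LFC was −0.11 for Calm2 (adjusted p = 0.612) and 0.017 for Calm3 (adjusted p = 0.923).

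Of the postsynaptic binding partners of CaMKII, 8 of 10 were lower in the cortex, where 10.8% of all tested genes were. They included the NMDA receptor genes Grin1 (LFC −0.35), Grin2a (−1.22) and Grin2b (−0.58, adjusted p = 0.0469), the scaffold genes Dlg4 (−0.52) and Shank3 (−0.68), and the actin crosslinkers Actn1 (−0.41) and Actn4 (−0.44). In the cerebellum 1 of 10 was lower, the scaffold gene Lrrc7 (LFC −0.97, adjusted p = 0.00566). Grin2b had an LFC of −0.58 there too (adjusted p = 0.0984), on normalized counts of 336 to 676, against 3401 to 7956 in the cortex.

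Of 9 substrate genes, 3 were lower in the cortex, namely Cacng2 (LFC −0.39), Kalrn (−0.93) and Ryr2 (−0.46), and Kalrn, an exchange factor of dendritic spines, was also the 1 lower in the cerebellum (−0.54). Of 9 genes of phosphatases acting on CaMKII and of their regulators, 3 were lower in the cortex. These were Ppm1f (−0.31), which encodes a phosphatase of CaMKII, and Ppp1r1a (−0.42) and Ppp1r1b (−1.21), which encode inhibitors of protein phosphatase 1. Ppm1f (−0.29) was the 1 lower in the cerebellum.

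Among 10 other calcium/calmodulin kinases and kinase-like genes, 5 were lower and 1 was higher in the cortex. Camkk2, an activating kinase of CaMKI and CaMKIV, fell from 17587 to 19297 normalized counts in WT to 6732 to 7916 in SCA1 KI cortex (LFC −1.29, adjusted p = 1.60e-05). Camk4 (−1.02), Camkk1 (−0.62), Camk1g (−0.58) and Camk1d (−0.30) fell too, and Pnck rose (1.06, adjusted p = 1.80e-04). In the cerebellum 3 of the 10 were lower, namely Camkv (−2.48), Camkk1 (−0.48) and Camk1d (−0.46), while Camkk2 had an LFC of −0.27 (adjusted p = 0.237) and Camk4 of 0.070 (adjusted p = 0.846). Camkv, a pseudokinase gene, had 1655, 772 and 1074 normalized counts in WT libraries 2, 4 and 6, again highest in library 2.

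**Figure D4:**
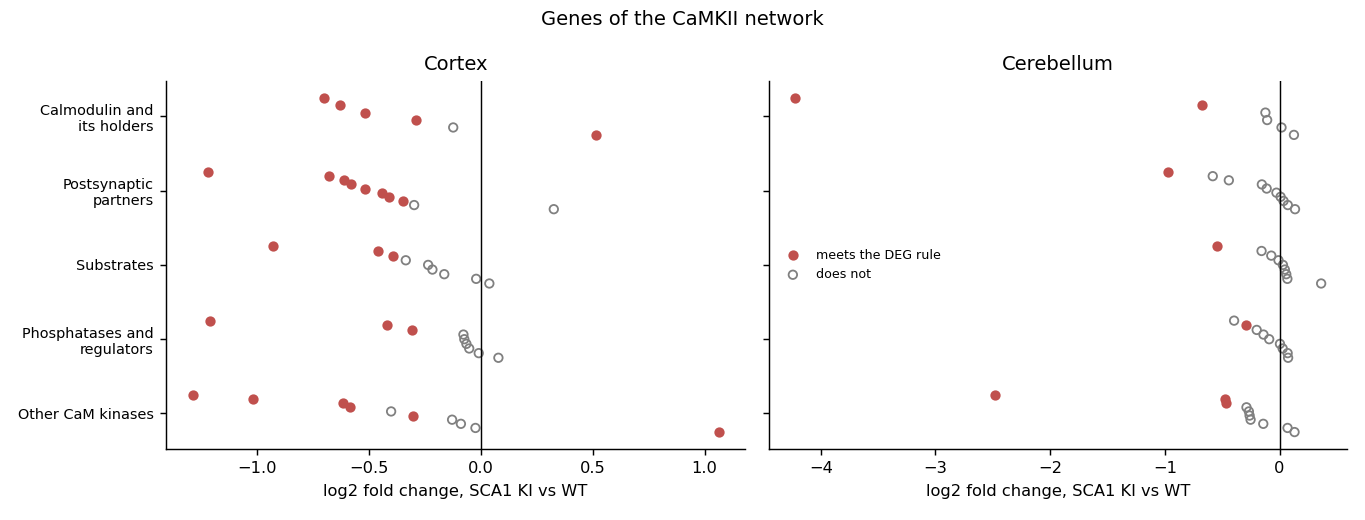
LFC of SCA1 KI over WT (horizontal axis, log2 scale, with a wider range in the cerebellum panel) for the 44 genes of the 5 lists around CaMKII, with 1 point per gene, filled for DEGs and open for the others. In the cortex 23 genes are lower and 2 higher DEGs, and in the cerebellum 8 are lower, with Nrgn the lowest at −4.22.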

How the data were processed

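Poly-adenylated RNA of whole cortex and cerebellum was analysed in 12 libraries, 3 per region and genotype. Reads were mapped by the authors to mm10 (STAR), assigned to genes (featureCounts) and scaled by DESeq2, with versions and annotation not given in the sources used here. The deposited signal is normalized counts, reads divided by a size factor. Whole reads, within 0.02 of a read or in proportion more for high counts, were recovered for 100% of the values. At the highest counts, those of Camk2a and Camk2n1 in the cortex included, this tolerance was so wide that no value could fail. On the recovered reads edgeR 4.0.16 called 2472 genes in the cortex and 866 in the cerebellum. DESeq2 1.42.0 called 2660 and 1150, and limma on the normalized counts 2402 and 824.

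The 15369 genes averaging 10 or more entered limma 3.58.1 (R 4.3.3, empirical Bayes, trended variance) as log2(normalized count + 1), with 4 group means and Benjamini-Hochberg adjustment over all genes. This scale understates changes of low genes. The labels do not say whether 1 mouse gave both tissues, so p-values measure the spread between these libraries.

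Named were the members, the DEGs of the 5 lists, Calm2, Calm3, Camkk2, Camk4, Grin2b, Atxn1 and the 3 genes most like each member, of which some are not reported here. The members and all lists, 10 marker lists included (cortical excitatory neurons, hippocampus, striatum, thalamus and habenula, interneurons, granule cells, Purkinje cells, astrocytes, oligodendrocytes, microglia), were chosen with earlier results of these data known. Marker genes with values in the text were named after their values were seen. GENCODE vM21 (GRCm38) matched 14978 of 15759 symbols, and no exon of a member overlapped one of another gene. Alternatives were a pseudocount of 0.5 or 5, a minimum mean of 100 or none, centring on the region's median, removal of the length and GC trend, both count tests, an LFC limit of 1 or none, each region on its own, and 12 fits without 1 library. The fits were tested on simulated data.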

Additional observations from a re-analysis of the deposited data

Results flagged for a closer look

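The genotype LFC of Camk2n1 differed between the regions. It was −1.44 in the cortex and −0.42 in the cerebellum, a difference of −1.02 (SE 0.12) past the adjusted threshold of limma, and SCA1 KI was lower than WT in all 3 libraries of each region. The gene was among those on which the family was chosen, so this value is a description and no independent evidence.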

How the results depend on the processing

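No paired analysis was possible because the library columns carry letters and numbers of their own and not the replicate numbers of the labels. With a limit of 1 on the absolute LFC, the DEG rule was met by 1 member in the cerebellum, 3 members differed between the WT regions, 4 network genes were lower and 1 was higher in the cortex, and 2 were lower in the cerebellum, since this limit leaves fewer genes by construction. The count of network genes higher in the cerebellum was 1 with each region fitted on its own and 1 with the length and GC trend removed, and the cause was not tested. With the length of the longest transcript in place of all exons, the share of Camk2a was 73.7% and 59.8% in the WT and SCA1 KI cortex and 11.2% and 6.31% in the WT and SCA1 KI cerebellum, since the lengths in the ratio differ. Leaving out single libraries gave 3 to 4 members in the cortex, 2 to 3 in the cerebellum, 5 to 6 between the WT regions and 1 for the difference between regions, with 19 to 24 lower and 2 higher network genes in the cortex and 7 to 10 lower and 0 higher in the cerebellum. Of 372 member LFCs under the alternatives other than the limits on the LFC, 361 kept their direction and their side of the DEG rule, 9 no longer met it and 2 newly met it (Camk2d in the cortex without SCA1 KI library A, and 0.33 with the length and GC trend removed). With each region on its own Camk2g missed the rule in the cerebellum. None changed direction. Each group held 3 libraries, which limits the precision of the values.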
